A study of Homo sapiens with 4 samples.

Results

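The genes described here encode the parts by which an epithelial cell holds on to its basement membrane: 6 integrin subunits (ITGA2, ITGA3, ITGA6, ITGB1, ITGB4 and ITGB6), laminin-332 chains (LAMA3 and LAMB3) and the hemidesmosomal collagen COL17A1. They were taken by symbol from the gene table and are 9 of its 62077 rows. All 9 had a mean of at least 1 FPKM (fragments per unit of exon length, scaled to the mapped fragments of the library) over the 4 libraries, the minimum that 15057 genes reached. The samples were FaDu cells, an established line of human hypopharyngeal squamous carcinoma. Cells expressed a scrambled control or a hairpin against TET1 (TET1-si), delivered by lentivirus, and were kept in normoxia or for 19 h in hypoxia at 1% oxygen and 5% CO2. Each of the 4 combinations was 1 library, and these are called N-scr and N-si in normoxia and H-scr and H-si in hypoxia. Without replicates no difference below has a replicate check or a p-value, and each compares single libraries, so that differences between cultures cannot be told apart from those between conditions.

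Hemidesmosomes are rivets between the keratin filaments of a basal epithelial cell and the matrix below it. Integrin α6β4 and collagen XVII cross the membrane there, plectin and BP230 (encoded by PLEC and DST) bind the keratins inside, and laminin-332, which contains the LAMA3 and LAMB3 chains, is the ligand outside. The integrins that contain β1 (ITGB1) connect to actin in focal adhesions instead, with α3β1 and α6β1 binding laminins and α2β1 binding collagens. ITGB6 pairs with αv (ITGAV), and that receptor activates latent TGF-β at epithelial surfaces.

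Recovered depths were between 22410000 and 24500000 reads per library, so counting error was small beside the changes reported for most of the genes. TET1, the knockdown target, had 0.129 FPKM in N-scr against 0.0493 in N-si, and 0.331 in H-scr against 0.122 in H-si, on approximately 28, 11, 76 and 26 reads. It was therefore lower in both TET1-si libraries, by ratios of 2.63 in normoxia and 2.71 in hypoxia. All 8 epithelial markers on the fixed list had a mean of at least 1 FPKM, and their summed level was 6400 FPKM in N-scr against 2129 in N-si, and 8255 in H-scr against 3827 in H-si. The keratins KRT5, KRT8 and KRT18 held most of that sum and were lower after TET1-si in both oxygen states, KRT5 at 2673 FPKM in N-scr and 523.8 in N-si. TP63 was lower in normoxia and near level in hypoxia (54.8 and 53.4 FPKM, a difference whose sign TPM rescaling turned), CDH1 and EPCAM were higher in both (CDH1 at 179.3 and 266.9 FPKM in normoxia, and 291.9 and 398.9 in hypoxia), and KRT19 and DSP were lower in normoxia and higher in hypoxia. Markers of other cell types were mostly near 0 (DCN, PDGFRA, LUM, COL1A2, PTPRC and CD3E were at or below 0.0809 FPKM in each library). The largest exceptions were COL1A1 and CDH5, with levels up to 37.0 and 45.5 FPKM in H-si. PMEL, CD14 and VWF reached 8.07, 3.46 and 2.94 FPKM in the same library. The summed fibroblast markers ran from 5.30 FPKM in N-scr to 37.2 in H-si and the endothelial ones from 8.93 to 48.4, and the leukocyte sum was at most 3.47 and the melanocyte sum at most 8.52. The part of these markers in the results below was not tested, and fewer cells of a type and less RNA per cell cannot be told apart in such bulk samples.

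The most abundant member was ITGA3 (ENSG00000005884, hg19 chromosome 17, 48133332 to 48167845, plus strand), which encodes the α3 chain of a laminin receptor. Its level was 387.1 FPKM in N-scr against 226.6 in N-si, and 521.2 in H-scr against 337.5 in H-si. ITGB1 (ENSG00000150093, chromosome 10, 33189247 to 33294720, minus strand), which encodes the β1 chain shared by many integrins, had 329.0, 199.2, 286.5 and 170.0 FPKM in the same order. Each of these means exceeded those of at least 96.48% of 11907 protein-coding genes at or above 1 FPKM. In both, the scrambled library was higher than the TET1-si library at each oxygen state, and H-scr was the highest library for ITGA3 and N-scr for ITGB1.

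The hemidesmosomal integrin chains differed in level from each other. ITGB4 (ENSG00000132470, chromosome 17, 73717408 to 73753899, plus strand), whose product has a long cytoplasmic tail that binds plectin, had 121.4 FPKM in N-scr against 87.6 in N-si, and 187.5 in H-scr against 201.9 in H-si. ITGA6 (ENSG00000091409, chromosome 2, 173292082 to 173371181, plus strand), which encodes its partner α6, had 21.1, 15.02, 27.6 and 26.0 FPKM. Both hypoxia libraries lay above both normoxia libraries for each of these genes. COL17A1 (ENSG00000065618, chromosome 10, 105791044 to 105845760, minus strand) had 77.3 FPKM in N-scr against 26.1 in N-si, and 146.8 in H-scr against 60.3 in H-si, a range of 5.63-fold between the lowest and highest library that was wider than that of any other member (1.73-fold to 2.51-fold).

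Of the laminin-332 chains, LAMB3 (ENSG00000196878, chromosome 1, 209788220 to 209825811, minus strand) had 76.5 FPKM in N-scr against 74.0 in N-si, and 140.6 in H-scr against 102.4 in H-si. LAMA3 (ENSG00000053747, chromosome 18, 21269407 to 21535030, plus strand) was lower, with 12.3, 6.78, 13.9 and 7.50 FPKM. LAMA3 has long and short transcript forms, only the short one of which contributes to laminin-332, and the gene-level value does not separate them. The remaining members were also among the lower ones. ITGA2 (ENSG00000164171, chromosome 5, 52285156 to 52390609, plus strand), the α2 chain of the collagen receptor, had 9.25, 5.55, 6.92 and 5.36 FPKM, and ITGB6 (ENSG00000115221, chromosome 2, 160956177 to 161128399, minus strand) had 7.64, 6.54, 15.2 and 16.4 FPKM. ITGB6 was separated by oxygen state, as were ITGA6, ITGB4 and LAMB3, with no overlap between the libraries of each state. LAMA3 was separated in the same way by knockdown state, as were ITGA2, ITGA3, ITGB1 and COL17A1. The share of all genes separated in either way was not counted, so neither grouping is taken as particular to these genes.

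**Figure D1:**
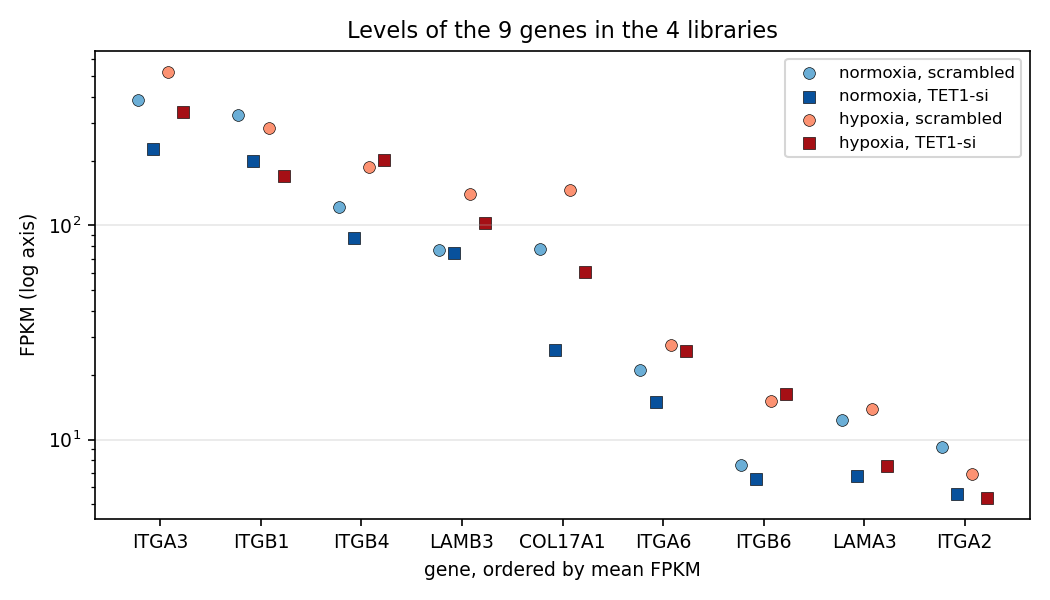
FPKM of the 9 genes (log axis) in each of the 4 libraries, with circles for scrambled and squares for TET1-si cells and blue for normoxia and red for hypoxia; each point is 1 library. ITGA3 and ITGB1 are the highest, and COL17A1 covers the widest range, from 26.1 FPKM in N-si to 146.8 in H-scr.

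TET1 oxidises methylated cytosines, which in most human cells stand next to a guanine (CpG), and the promoter windows of 4 members are shown with each CpG in capitals. They are RefSeq windows of 300 bases on GRCh38.p14, from 250 bases before to 50 after an annotated start, printed 5′ to 3′ on the gene's strand. Windows were matched for 7 of the 9 members, 11 windows in all, and not for ITGA3 and ITGB4. COL17A1 is printed because it fell most after TET1-si, ITGB6 because it was slightly higher after TET1-si in hypoxia, ITGB1 because its first window is the richest in CpG, and LAMA3 for its repeated AP-1 motif.
COL17A1 (chr10:104085831-104086130, minus strand): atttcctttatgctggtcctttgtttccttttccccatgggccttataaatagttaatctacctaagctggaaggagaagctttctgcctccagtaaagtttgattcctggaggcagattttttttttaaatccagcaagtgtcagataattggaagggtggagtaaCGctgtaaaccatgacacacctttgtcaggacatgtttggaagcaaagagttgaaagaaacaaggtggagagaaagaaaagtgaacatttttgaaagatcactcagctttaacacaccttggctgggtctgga
ITGB6 (chr2:160200223-160200522, minus strand): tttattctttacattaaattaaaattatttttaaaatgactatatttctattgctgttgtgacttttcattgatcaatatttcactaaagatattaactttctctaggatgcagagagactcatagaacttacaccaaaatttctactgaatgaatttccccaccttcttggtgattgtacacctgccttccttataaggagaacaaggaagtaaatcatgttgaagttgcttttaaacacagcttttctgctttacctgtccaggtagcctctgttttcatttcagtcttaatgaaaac
ITGB1, first window (chr10:32958181-32958480, minus strand): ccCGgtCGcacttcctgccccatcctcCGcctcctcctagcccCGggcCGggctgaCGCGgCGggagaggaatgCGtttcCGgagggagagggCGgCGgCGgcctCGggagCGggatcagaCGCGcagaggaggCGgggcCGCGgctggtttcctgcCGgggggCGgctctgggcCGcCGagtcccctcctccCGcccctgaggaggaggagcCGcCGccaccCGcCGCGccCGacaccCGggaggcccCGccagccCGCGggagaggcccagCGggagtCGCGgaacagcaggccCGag
LAMA3 (chr18:23872770-23873069, plus strand): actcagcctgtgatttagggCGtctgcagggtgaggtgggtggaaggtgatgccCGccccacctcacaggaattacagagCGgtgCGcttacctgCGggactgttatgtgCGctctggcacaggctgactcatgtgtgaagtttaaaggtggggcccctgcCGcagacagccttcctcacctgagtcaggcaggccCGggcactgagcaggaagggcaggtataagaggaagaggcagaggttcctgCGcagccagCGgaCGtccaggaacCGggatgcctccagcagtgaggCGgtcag

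The COL17A1 window holds 1 CpG and that of ITGB6 holds 0, against a median of 14 over 35116 windows of the same length. The ITGB1 window holds 39, more than 91.3% of those windows, and its second annotated window holds 4. LAMA3 has 13, ITGA2 has 27, ITGA6 has 11 and 38 in its windows, and LAMB3 has between 3 and 11. How the CpG content of these windows relates to the TET1-si response was not tested. Which starts FaDu cells use was not measured, and methylation was not analysed here. Whether the LAMA3 window belongs to the long or the short form of the gene was not determined.

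Motifs were searched by their letters on both strands. The core of the element bound by hypoxia-inducible factors, ACGTG or GCGTG, was found in 3 of the 11 windows (those of ITGA2 and ITGA6), against 48.4% of all windows. The 11 windows are not independent, since those of ITGA6 overlap, as do the first and second of LAMB3. The AP-1 motif TGACTCA, whose other strand reads TGAGTCA, occurs at 2 places in the LAMA3 window and at 1 in the third LAMB3 window, against 4.95% of all windows that hold it. TATAAA, searched on the gene's own strand, was found in the COL17A1 window and the second ITGB1 window, against 7.33% of all windows.

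The first comparison asked how the members responded to hypoxia in scrambled cells, on the log2(FPKM + 0.1) scale on which all changes are given; this scale slightly understates the change of low genes. No member was at least 2-fold higher or lower, a limit that 12.9% of the 15057 genes passed upward and 4.53% downward. ITGB6 came closest, at 0.98 (7.64 to 15.2 FPKM), and passed it under upper-quartile scaling, while TPM rescaling took ITGB6 and COL17A1 past it. COL17A1 was higher by 0.92 with a 95% counting interval of the log2 ratio from 0.89 to 0.96, LAMB3 by 0.88 (0.84 to 0.92) and ITGB4 by 0.63 (0.60 to 0.66). These intervals cover counting error only. ITGA3 and ITGA6 were higher by 0.43 and 0.38, and LAMA3 by 0.17. ITGA2 was lower, at -0.41 (interval -0.52 to -0.31), and so was ITGB1, at -0.20 (-0.22 to -0.17). The median of the members was 0.43, beside 0.05 over all genes, and 7 of 9 were higher, beside 52.9% of all genes.

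In TET1-si cells, 3 members rose at least 2-fold in hypoxia and 0 fell, where 12.5% of all genes were at least 2-fold higher and 8.66% lower. They were ITGB6 at 1.31 (6.54 to 16.4 FPKM, counting interval 1.20 to 1.46), COL17A1 at 1.21 (26.1 to 60.3 FPKM, 1.15 to 1.27) and ITGB4 at 1.20 (87.6 to 201.9 FPKM, 1.17 to 1.24). ITGA6 was higher by 0.79, ITGA3 by 0.57, LAMB3 by 0.47 and LAMA3 by 0.14. ITGB1 was at -0.23. A change of ITGA2 was not detectable at this depth, at -0.051 with an interval from -0.18 to 0.08, and upper-quartile and TPM scaling turned it to 0.053 and 0.083. The members' median was 0.57, beside 0.03 over all genes. The α6 and β4 chains were higher in hypoxia in both knockdown states, and the β1 chain was lower in both.

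Subtracting the scrambled from the TET1-si hypoxia response gave a value that was positive for 6 members and negative for 3. It was largest for ITGB4, at 0.58, followed by ITGA6 at 0.41 and ITGA2 at 0.36. LAMB3 had the lowest value, -0.41, since its level in hypoxia was 1.84 times that in normoxia in scrambled cells and 1.38 times in TET1-si cells. ITGB1 and LAMA3 were near 0, at -0.029 and -0.029. The median was 0.28, beside -0.06 over all genes, of which 44.6% were positive and 55.4% negative.

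**Figure D2:**
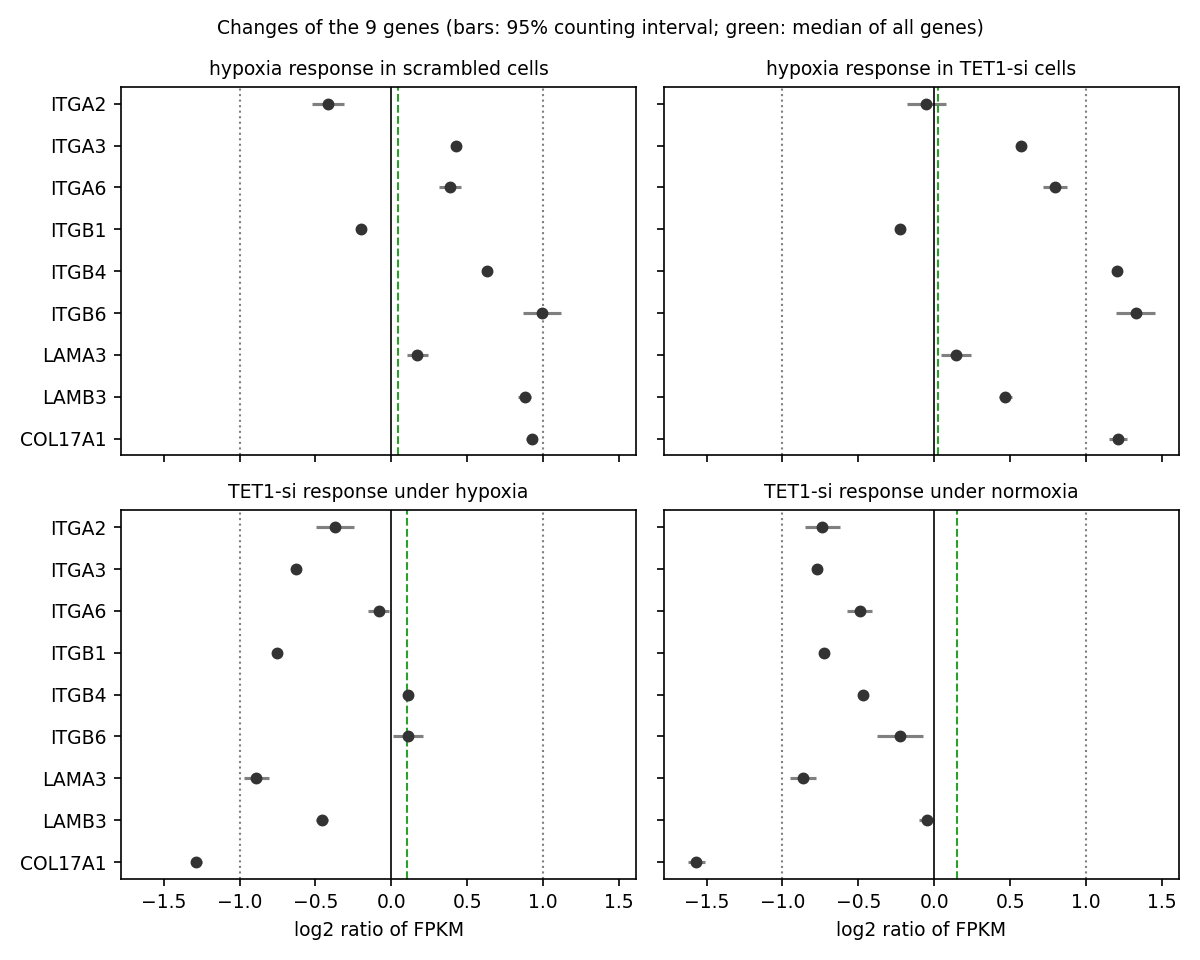
Log2 ratio of FPKM (horizontal axis) of each gene in the 4 comparisons, with 95% counting intervals as bars, the median log2(FPKM + 0.1) change of all 15057 genes as a dashed green line and 2-fold limits as dotted lines. Under TET1-si in normoxia all 9 points lie left of the green line, with COL17A1 farthest left, and in TET1-si cells ITGB4, ITGB6 and COL17A1 lie right of the 2-fold limit in hypoxia.

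The second comparison asked how the members differed after TET1 knockdown. Under normoxia all 9 were lower in the TET1-si library, LAMB3 by only 0.048 with a counting interval that reached 0 (-0.10 to 0.00067) and a value of 0.0010 after TPM rescaling, whereas 39.0% of all genes were lower. One member fell at least 2-fold and 0 rose, where 5.56% of all genes were at least 2-fold lower and 12.1% higher. That member was COL17A1, at -1.56 (77.3 to 26.1 FPKM, counting interval -1.62 to -1.51). LAMA3 was at -0.85, and median-of-ratios scaling took it past the limit, at -1.02. ITGA3 (-0.77), ITGA2 (-0.73) and ITGB1 (-0.72) lay close together, ITGA6 and ITGB4 were at -0.49 and -0.47, and ITGB6 was at -0.22. The members' median was -0.72, beside 0.15 over all genes, and their median relative to all genes was -0.87.

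Under hypoxia 7 members were lower in the TET1-si library, beside 42.9% of all genes. COL17A1 again fell at least 2-fold, at -1.28 (146.8 to 60.3 FPKM, counting interval -1.32 to -1.24), and 0 members rose. Of all genes, 8.35% were at least 2-fold lower and 12.0% higher. LAMA3 followed at -0.88, and just past the limit after median-of-ratios scaling, then ITGB1 at -0.75, ITGA3 at -0.63, LAMB3 at -0.46 and ITGA2 at -0.36. ITGA6 was near level at -0.08 (counting interval -0.15 to -0.016). ITGB4 and ITGB6 were slightly higher, both at 0.11, which median-of-ratios scaling turned to -0.015 and -0.013. The members' median was -0.46, beside 0.10 over all genes, or -0.56 relative to all genes. In both oxygen states the order was led by COL17A1 and LAMA3, and the α6, β4 and β6 chains were nearer to 0 than the α3 and β1 chains. The comparisons under normoxia and hypoxia share no library with each other, but each shares its libraries with the hypoxia comparisons above.

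The study's 3 RNA-Seq criteria for regulation by TET1 require that the ratio of H-scr to H-si exceed 2, that hypoxia raise the level in scrambled cells, and that N-si not exceed N-scr. COL17A1 met all of them, with a ratio of H-scr to H-si of 2.43, and was the only member to do so. The criterion it alone met was the first; 7 members met the second and 9 the third. Over the 15057 genes, 1304 met the first, 7970 the second and 5971 the third, and 3.84% met all 3 criteria.

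Ratios between chains within 1 library do not depend on how libraries are scaled, and FPKM are per length. ITGB4 was 0.37 times ITGB1 in N-scr against 0.44 in N-si, and 0.65 in H-scr against 1.19 in H-si, so that β4 mRNA exceeded β1 mRNA in H-si alone. Of the summed FPKM of ITGB1, ITGB4 and ITGB6, the share of ITGB4 was 26.5%, 29.9%, 38.3% and 52.0% in the same order, and that of ITGB6 was 1.67%, 2.23%, 3.11% and 4.22%. The share of ITGB1 was 71.8% in N-scr and 43.8% in H-si. ITGA3 relative to ITGB1 was 1.18 and 1.14 in normoxia and 1.82 and 1.98 in hypoxia (scrambled, then TET1-si). It was separated by oxygen state and differed little with the knockdown.

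The α6 chain stayed below its partners. ITGB4 was 5.74 times ITGA6 in N-scr against 5.83 in N-si, and 6.79 in H-scr against 7.75 in H-si. Against ITGB1, ITGA6 was 0.064, 0.075, 0.096 and 0.15. ITGA2 was between 0.024 and 0.032 times ITGB1 in the 4 libraries, a spread of 1.30-fold. The ITGA6 to ITGB4 ratio was similarly narrow, at 1.35-fold, while that of ITGA6 to ITGB1 spread 2.39-fold and that of ITGB4 to ITGB1 3.22-fold.

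Of the laminin-332 chains, LAMA3 was 0.16 times LAMB3 in N-scr against 0.092 in N-si, and 0.099 in H-scr against 0.073 in H-si. Its highest ratio was in the library with neither treatment.

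**Figure D3:**
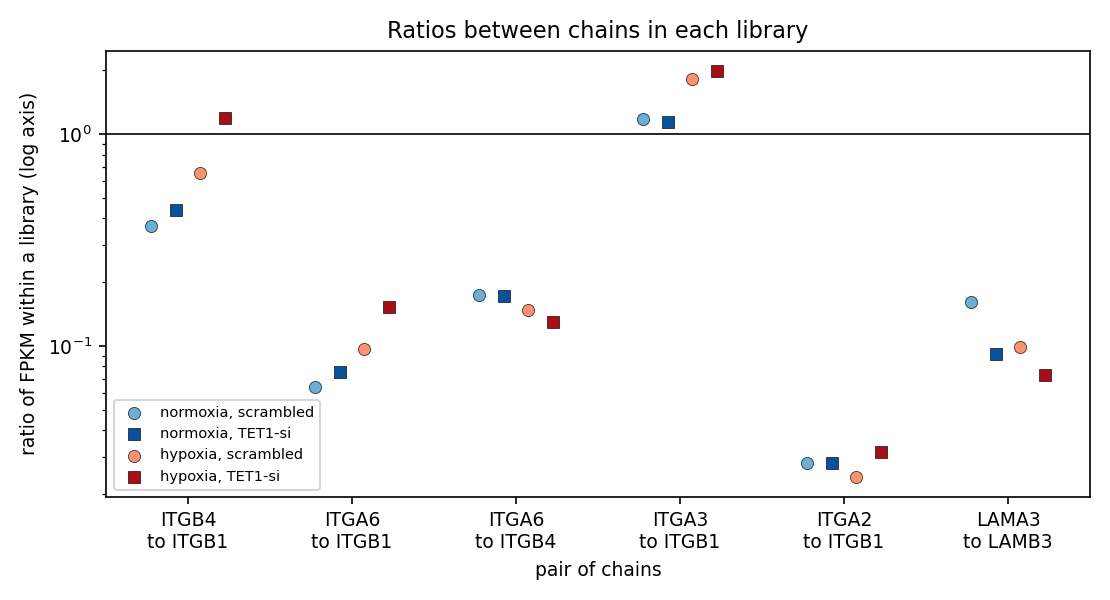
Ratio of FPKM (log axis) of 6 pairs of chains within each library; a line marks equal levels, circles are scrambled and squares TET1-si cells, blue is normoxia and red hypoxia. ITGB4 to ITGB1 runs from 0.37 in N-scr to 1.19 in H-si, and ITGA3 to ITGB1 is separated by oxygen state.

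After TET1-si, the other parts of the hemidesmosome did not share one direction. Under hypoxia DST, PLEC and CD151 were all higher, by a median of 0.33 without the knockdown and 0.50 with it. The smallest of these changes was that of CD151 with the knockdown, at 0.052. Of 3 partners listed (DST, PLEC and CD151), 0 were at least 2-fold higher or lower after TET1-si in either oxygen state. PLEC, the plectin gene, was higher, with 56.1 FPKM in N-scr against 72.7 in N-si, and 60.1 in H-scr against 114.9 in H-si, and reached 2-fold in hypoxia after TPM rescaling alone. DST was at 64.5, 51.4, 88.9 and 72.6 FPKM, which does not separate the BP230 form from other forms of the gene. CD151, a tetraspanin that binds α3 and α6 integrins, was at 109.3, 107.2, 137.7 and 111.1 FPKM, and its normoxia change of -0.029 turned to 0.020 after TPM rescaling.

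Counts past 2-fold after TET1-si on this and the following lists stand beside shares of all genes of 12.0% higher and 8.35% lower in hypoxia. In normoxia these shares were 12.1% and 5.56%. Of the 15 integrin α subunits outside the members, 7 had a mean of at least 1 FPKM. After TET1-si, 0 of these 7 passed 2-fold in hypoxia and 1 was higher in normoxia. It was ITGAX, a leukocyte integrin chain, at 0.718 FPKM in N-scr against 3.92 in N-si, and 5.83 in H-scr against 8.88 in H-si. ITGAV, the partner of ITGB6, rose by 1.40 in scrambled cells under hypoxia (18.5 to 48.8 FPKM) and by 1.25 in TET1-si cells (21.7 to 51.8 FPKM). ITGA5, of the fibronectin receptor, had 13.0 FPKM in normoxia and 22.9 in hypoxia without the knockdown, and with it rose from 8.01 to 17.8 FPKM. ITGAE had 21.1 and 15.6 FPKM in scrambled cells, and 27.4 and 16.3 after the knockdown.

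Of the 5 other β subunits 4 were measured, and none of them was at least 2-fold lower after TET1-si. ITGB5 rose in normoxia by 1.62 (34.1 to 104.9 FPKM) and stood at 34.9 and 51.4 FPKM in hypoxia. ITGB2, the β chain of leukocyte integrins, rose from 5.04 to 40.4 FPKM in normoxia and from 18.2 to 39.8 in hypoxia. ITGB7 and ITGB8 were below 10 FPKM in each library. The β5 and β2 chains therefore changed in the opposite direction to β1 after the knockdown in normoxia.

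Of 9 other laminin chains listed 4 were measured. LAMB2, the β2 chain, rose after TET1-si from 72.6 to 174.6 FPKM in normoxia and from 230.2 to 490.9 in hypoxia (1.27 and 1.09, the latter at under 2-fold after median-of-ratios scaling). LAMA5, the α5 chain, had 192.3, 180.3, 261.2 and 466.8 FPKM in the order used above. LAMB1 fell in normoxia from 77.3 to 31.7 FPKM (-1.28) and was at 57.3 and 32.8 FPKM in hypoxia, and LAMC1 had 92.0, 61.4, 65.1 and 49.5 FPKM. In H-si the α5 and β2 chains were the most abundant of the laminin mRNAs described, and LAMA3 was the lowest.

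Among 16 further basement membrane components and integrin ligands, 13 were measured, of which 1 rose and 2 fell at least 2-fold after TET1-si in hypoxia and 3 rose and 5 fell in normoxia. COL7A1, the anchoring fibril collagen below hemidesmosomes, had 83.9 FPKM in N-scr against 108.4 in N-si, and 148.7 in H-scr against 229.5 in H-si. AGRN had 137.6, 136.2, 174.2 and 230.8 FPKM. COL4A2 and COL4A5, chains of basement membrane collagen IV, differed in oxygen response, with COL4A2 at 30.1 and 19.1 FPKM and COL4A5 at 10.0 and 19.6 in scrambled cells, in normoxia and hypoxia. COL7A1 and COL17A1, both anchoring collagens, were thus on opposite sides of 0 after TET1-si.

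On the list of 21 integrin activators and focal adhesion adaptors 19 were measured, and 1 rose and 3 fell at least 2-fold after TET1-si in hypoxia, with 0 and 4 in normoxia (2 fell in normoxia after TPM rescaling). The named ones, PTK2 (focal adhesion kinase), VCL, PXN and ZYX, changed by between -0.65 and 0.40 after TET1-si. PTK2 was at 113.6, 150.1, 116.8 and 137.1 FPKM in the order used above. ZYX was at 75.4, 55.9, 86.2 and 54.8 FPKM.

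Of 9 proteases that process laminin-332, collagen XVII or the matrix around them, 8 were measured, and after TET1-si 3 rose and 2 fell at least 2-fold in hypoxia and 2 rose and 1 fell in normoxia. MMP14, a membrane metalloproteinase, rose from 24.9 to 65.8 FPKM in normoxia and from 51.9 to 130.7 in hypoxia. PLAU, the urokinase gene, fell from 223.5 to 95.3 and from 313.9 to 147.7 FPKM. PLAT fell in hypoxia from 101.4 to 28.1 FPKM and was at 19.5 and 18.3 FPKM in normoxia. ADAM10, one of the sheddases, had 78.6, 69.2, 103.5 and 120.3 FPKM.

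**Figure D4:**
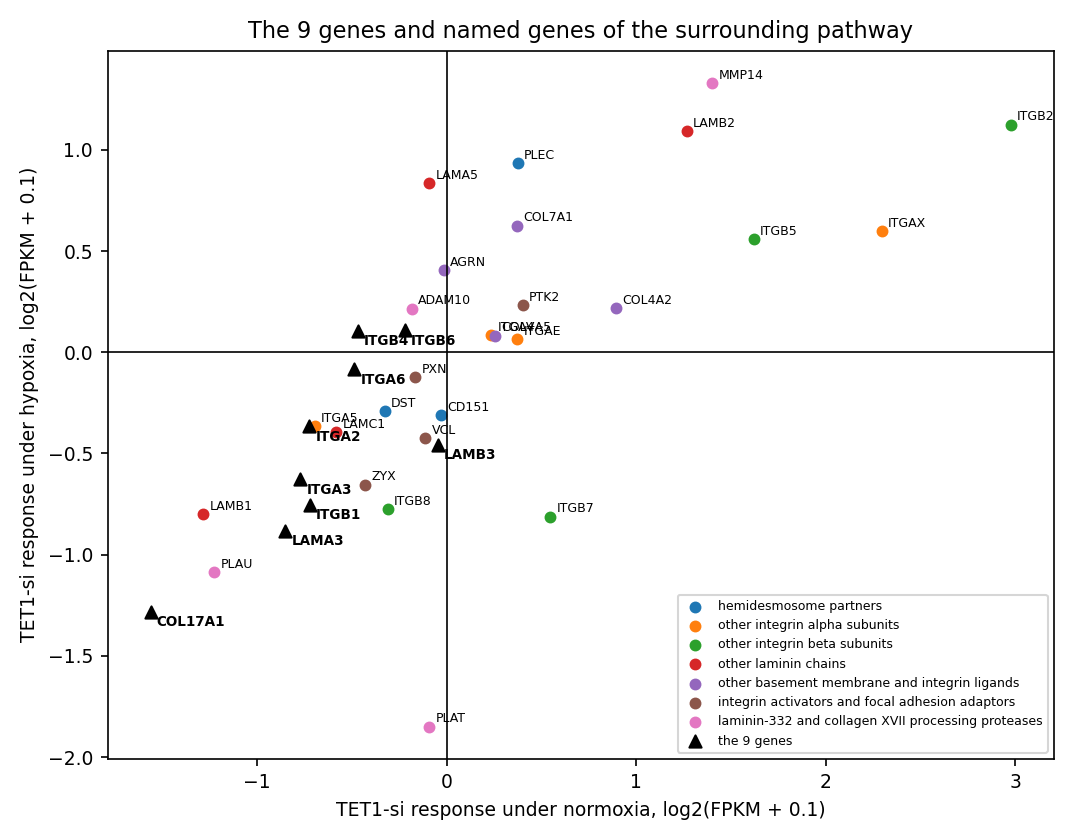
Change after TET1-si in normoxia (horizontal axis) and in hypoxia (vertical axis), both as log2(FPKM + 0.1), of the 9 genes (black triangles) and of the up to 4 most abundant genes of each list (coloured by list). The 9 genes lie left of 0 in normoxia, with COL17A1 farthest left and MMP14, LAMB2 and ITGB2 at the upper right.

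The members were next set beside the genes around them, as the median change of the 10 genes at or above 1 FPKM on each side. Under normoxia the neighbours' median was above 0 for 8 members and the member lay below it in all 9 cases. Around ITGA6 the median was 0.71 against -0.49 for ITGA6, and around ITGB1 it was 0.28 against -0.72. COL17A1 lay in a stretch that was itself lower, with a median of -0.18 and 12 of 20 neighbours below 0, and was lower than each of the 20. Under hypoxia its neighbours had a median of -0.40 against -1.28 for COL17A1, and 4 of 20 were lower still. With 25 neighbours per side the medians around COL17A1 were 0.018 in normoxia and -0.024 in hypoxia. For ITGB4 the hypoxia values were alike, 0.13 for the neighbours and 0.11 for the gene.

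**Figure D5:**
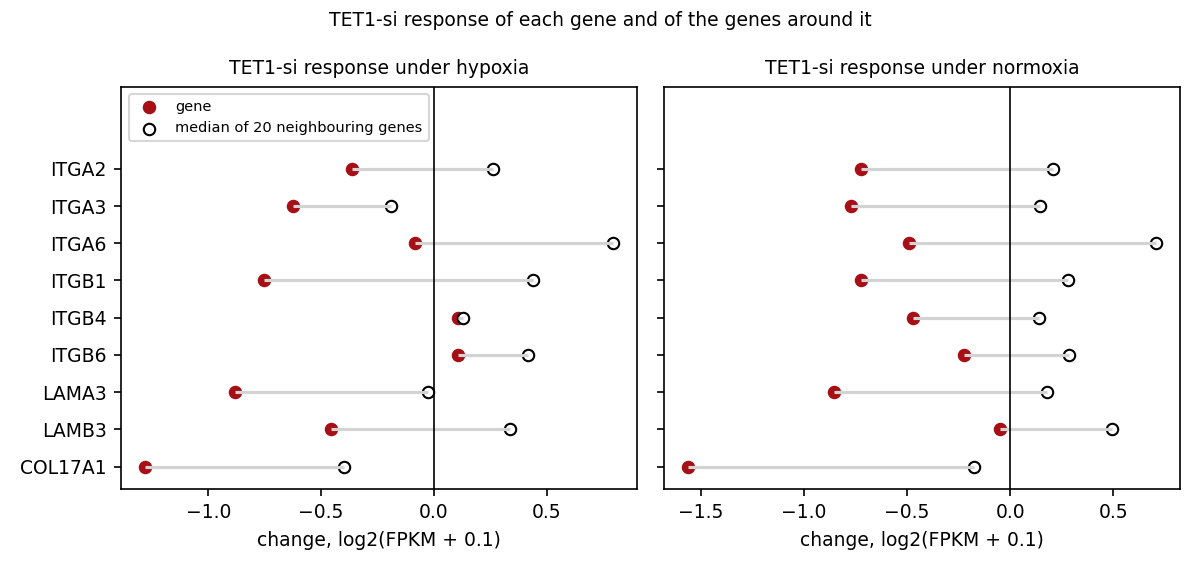
Change after TET1-si (log2(FPKM + 0.1), horizontal axis) of each gene (filled) and the median of its 20 neighbouring genes (open), in hypoxia and normoxia. Each filled point lies left of its open point, by the least for ITGB4 in hypoxia.

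Among themselves, the members' patterns over the 4 libraries were compared by the Euclidean distance of their centred log2(FPKM + 0.1) values. The closest were ITGA2 and ITGB1 (0.28), which pair as the collagen receptor, and ITGB4 and ITGB6 (0.29), followed by ITGA6 and ITGB4 (0.36). ITGA2 and COL17A1 were the farthest apart (1.57). LAMA3 was closer to ITGB1 (0.39) and ITGA3 (0.39) than to LAMB3 (0.82). Of 8635 other genes with a mean of at least 10 FPKM, those nearest to the members' mean pattern were PILRB (0.019), RP11-92C4.3 (0.027), SH2D3A (0.058), AC069513.3 (0.062) and STX16 (0.069). PILRB, for example, had 155.8 FPKM in N-scr against 99.0 in N-si, and 208.5 in H-scr against 152.7 in H-si.

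Reads may be shared where genes overlap, since no source used here says that strand was kept. Rows overlapping 7 of the members reached at most 7.03 FPKM, the level of GALK1 in N-si, which overlaps ITGB4. That is small beside 87.6 FPKM for ITGB4 in the same library. The lncRNA AC093818.1, which overlaps ITGA6, was at up to 2.36 FPKM, in H-si.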

How the data were processed

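RNA-Seq of 4 FaDu libraries, 1 per combination of oxygen and knockdown state, was used. Per the labels, the authors made TruSeq mRNA libraries with 100 bp HiSeq reads (single end per the labels, paired end per the methods) and ran TopHat and Cufflinks on hg19 with Ensembl annotation, and deposited gene-level FPKM; versions and filters are not given in the sources used here. Starts in the deposited loci count from 0, so 1 was added. Changes are differences of log2(FPKM + 0.1), a gene was counted past 2-fold at 1 on that scale, and backgrounds used genes with a mean of at least 1 FPKM, without 232 rows whose 111 gene IDs stand on several rows. FPKM are not counts and 1 library stood for each group, so no test was run.

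Depth was recovered from 7331 single-exon genes by searching the depth and the length offset (213 bp, or 213.5 in H-scr) at which low values become whole reads. Between 92.5% and 93.9% were whole within 0.05, and on values simulated for N-scr the depth was missed by 0.61%. Approximate reads used canonical transcript lengths of GENCODE v44lift37, and counting intervals are exact (Clopper-Pearson, 95%). Where short transcripts prevail, as may be so for LAMA3, reads are overstated. They were not needed for levels or changes. The members and gene lists were chosen with earlier results of these data known. By rule the genes named are the 9 members, TET1, the 5 nearest in pattern, and the up to 4 most abundant of each list. Cell type markers, genes overlapping a member and the genes under other observations are named besides, the last chosen after their values were seen. One further gene is not reported here. Alternatives were no pseudocount or one of 1, median-of-ratios, upper-quartile and TPM scaling, expression filters, and 25 neighbours per side. Python 3.11.15, scipy 1.17.1 and pandas 2.3.3 were used.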

Additional observations from a re-analysis of the deposited data

Results flagged for a closer look

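The TET1-si response of ITGB4 and of ITGB6 had opposite signs in the 2 oxygen states. ITGB4 was at -0.47 in normoxia and 0.11 in hypoxia, a difference of 0.58, and ITGB6 at -0.22 and 0.11, a difference of 0.33. Each value compares 1 library with 1 library, and the difference was not tested. The hypoxia values turn negative after median-of-ratios scaling. The differences within each gene also hold the shift of all genes, whose median was 0.15 in normoxia and 0.10 in hypoxia. Over all genes the median of this difference was -0.06, opposite in sign to the values of ITGB4 and ITGB6. With 1 library per group no group could be searched for a deviating sample.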

How the results depend on the processing

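Of 180 recomputed member changes, 175 kept their direction. Upper-quartile and TPM scaling turned ITGA2 to 0.053 and 0.083 in hypoxia in TET1-si cells, median-of-ratios scaling turned ITGB4 and ITGB6 to -0.015 and -0.013 after TET1-si in hypoxia, and TPM turned LAMB3 to 0.0010 in normoxia. The members' median hypoxia response in scrambled cells was 0.38 with median-of-ratios, 0.47 with upper-quartile and 0.55 with TPM scaling, and 1 and 2 members were at least 2-fold higher with the last 2. In TET1-si cells the median was 0.68 and 0.71 with upper-quartile and TPM scaling. After TET1-si the median in hypoxia was -0.58 (median-of-ratios), -0.51 (upper-quartile) and -0.39 (TPM), and in normoxia -0.89 (median-of-ratios), -0.84 (upper-quartile) and -0.65 (pseudocount of 1). With median-of-ratios scaling 2 members, LAMA3 and COL17A1, were at least 2-fold lower in each oxygen state. Genes at a mean of at least 5 FPKM passed 2-fold upward in hypoxia in 8.39% (scrambled) and 7.63% (TET1-si). With 25 neighbours per side the median turned to 0.24 around LAMA3 in hypoxia, and to -0.034 around ITGA3 and 0.018 around COL17A1 in normoxia. Around COL17A1 in hypoxia it moved to -0.024. The causes were not tested. Of the 5 genes nearest in pattern, 4 stayed under either alternative. No paired analysis was possible because each group holds 1 library. Depth limits TET1 and, in TET1-si cells, the hypoxia response of ITGA2.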

Other observations

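The genes in this paragraph were chosen after their values were seen. FN1, which encodes fibronectin, had 12.5 FPKM in N-scr against 4.24 in N-si, and 19.0 in H-scr against 2.32 in H-si, so that the change after TET1-si was -2.98 in hypoxia and -1.53 in normoxia, and their difference was not tested. TNC, which encodes tenascin-C, had 3.52, 1.31, 2.83 and 0.775 FPKM. The focal adhesion genes ILK, TNS3 and TNS4 were at least 2-fold lower after TET1-si in both oxygen states, with ILK at 36.9, 18.0, 52.6 and 17.7 FPKM and TNS4 at 17.4, 4.92, 31.7 and 8.58 FPKM; ILK and TNS3 in normoxia lay near the limit, at -1.04 and -1.04, and TPM rescaling moved both under it. Other genes of the same lists were higher after TET1-si in both oxygen states, among them COL4A1 (0.96 in hypoxia and 1.32 in normoxia), HSPG2 (0.85 and 1.13), TLN1 (0.78 and 0.58) and SRC (0.72 and 0.77), so the genes named here do not stand for their lists.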
